A study of Mus musculus with 13 samples.

Results

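Tissue kallikrein (Klk1) and 9 of its Klk1b paralogs (Klk1b3, Klk1b4, Klk1b9, Klk1b11, Klk1b16, Klk1b21, Klk1b22, Klk1b24 and Klk1b26) were followed through development of the mouse submandibular salivary gland. These 10 genes were taken by symbol from the 23364 genes of the RNA-seq tables, which list 15 Klk1 and Klk1b genes in all. They were chosen because their measured levels had stood out in these same samples, so their levels are given as a description and without a test. C57BL/6 glands gave 13 RNA samples, of which 3 came from E14.5 embryos (E for embryonic day) and 2 from each of E16.5, E18.5, postnatal day 5 (P5), 4 weeks (4wk) and 12 weeks (12wk). No sample carried an altered allele or received a treatment according to the labels. Glands were pooled from 3 embryos per sample at E14.5 and from 2 per sample at the later embryonic stages. The 4wk and 12wk mice were males, and the study did not determine the sex of embryos and P5 mice. Both P5 samples had the Y-linked transcripts and almost no Xist, as the adult males had, whereas every embryonic sample had both, so that age and sex cannot be told apart between the embryonic and the later samples.

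The Klk1 and Klk1b genes encode secreted serine proteases that arose by tandem duplication in the mouse lineage. Klk1 is the true tissue kallikrein and releases kinin from kininogen, while several Klk1b proteins are known as partners or processing enzymes of growth factors and of renin. In the submandibular gland the proteins are stored in granules of duct cells, and those of the granular convoluted tubules, which form at puberty and respond to androgen, are the best known source of the Klk1b proteins together with epidermal growth factor.

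The genes lie side by side on the plus strand of chromosome 7 of mm9, the build to which the reads were mapped. Klk1b9 is the first of the 10 (chr7:51231431-51235746) and Klk1 the last (chr7:51480807-51484987), and from Klk1b8 to Klk1 the cluster covers 278954 bases. The coding sequence of Klk1 was between 81.4% (Klk1b16) and 88.5% (Klk1b3) identical to those of the 9 paralogs in global alignments. Among the paralogs, the 36 pairs ran from 79.6% (Klk1b4 and Klk1b16) to 92.7% (Klk1b16 and Klk1b26), with a median of 86%.

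Such likeness bears on 50-base reads, because the authors discarded every read that mapped to more than 1 place. Of the 50-base stretches that lie within 1 coding exon, the one shared by the most genes is shown first, since a read from it could not be assigned. Stretches of the whole transcripts were shared by up to 10 genes of the cluster. It lies in exon 3 of Klk1 (chr7:51484111-51484160) and occurs 7 times in mm9, in Klk1, Klk1b3, Klk1b4, Klk1b21, Klk1b24, Klk1b5 and Klk1b27. Below it stands the most similar stretch of the members that lack it, each present once in mm9, with the bases that differ from the shared one in capitals.
Klk1 and 6 others: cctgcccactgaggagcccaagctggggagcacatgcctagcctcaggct
Klk1b11 (chr7:51254360-51254409): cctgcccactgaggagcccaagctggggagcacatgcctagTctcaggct
Klk1b9 (chr7:51234863-51234912): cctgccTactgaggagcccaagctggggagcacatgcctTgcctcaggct
Klk1b22 (chr7:51371409-51371458): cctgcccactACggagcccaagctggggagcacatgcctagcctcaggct
Klk1b26 (chr7:51271459-51271508): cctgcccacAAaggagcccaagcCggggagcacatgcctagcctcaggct
Klk1b16 (chr7:51396097-51396146): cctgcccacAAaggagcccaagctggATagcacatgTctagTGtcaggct
All lie in exon 3 on the plus strand. A single base set Klk1b11 apart from the shared stretch, and 7 bases set Klk1b16 apart.

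Over whole transcripts, between 67.7% (Klk1b24) and 88.5% (Klk1b16) of the 50-base windows of the 10 genes occurred at most once in mm9 and in no other listed transcript. Windows across an exon junction, which the genome does not hold in 1 piece, were included. The share was 68.9% for Klk1, 82.7% for Klk1b9, 86.7% for Klk1b22 and 86.4% for Klk1b11. Reads from the remaining windows could not be assigned to 1 gene. Dividing the mean FPKM (fragments per kilobase of gene, scaled to the reads on genes of the sample) by this share left the order of the 10 genes at 12wk as it was and exchanged Klk1b16 and Klk1b4 at 4wk.

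The members also share sequence in front of the gene. In the 300 bases before the start codon, Klk1 was between 77.8% (Klk1b21) and 85.7% (Klk1b9) identical to the paralogs, and the paralogs were between 75.9% and 96.3% identical to one another. The 6 letters TTTAAA, which read the same on both strands and resemble a TATA box, occurred once within this stretch in each of the 10 genes and began 68 or 69 bases before the start codon in every one. The 100 bases before the transcript start of GENCODE on mm9 are shown for Klk1 and for the 3 paralogs with the highest level at 12wk, with TTTAAA in capitals.
Klk1 (chr7:51480707-51480806): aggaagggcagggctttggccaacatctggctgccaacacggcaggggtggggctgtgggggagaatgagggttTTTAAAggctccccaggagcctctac
Klk1b9 (chr7:51231331-51231430): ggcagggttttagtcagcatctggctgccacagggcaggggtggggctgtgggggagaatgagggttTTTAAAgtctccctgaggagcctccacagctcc
Klk1b22 (chr7:51367943-51368042): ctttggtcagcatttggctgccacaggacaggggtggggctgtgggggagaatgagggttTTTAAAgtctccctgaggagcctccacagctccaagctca
Klk1b11 (chr7:51251147-51251246): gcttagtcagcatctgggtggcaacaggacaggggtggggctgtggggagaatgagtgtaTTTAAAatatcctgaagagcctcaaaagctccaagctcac

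In the RefSeq promoter windows (GRCm38.p6, 250 bases before to 50 bases after the start), which were found for all 10 genes, TTTAAA occurred in 9 of 10 and in 13.2% of all 32851 windows. The exception was Klk1, whose window there ends before the motif. The letters TGTTCT, part of the element bound by steroid receptors, were searched on both strands and occurred in 2 of the 10 windows (Klk1b3 and Klk1b24) and in 19% of all windows. AGGTCA, bound by other nuclear receptors, occurred on either strand in 7 of the 10 and in 16.3% of all. These matches describe letters in a short window and were not tied to any measured level.

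Klk1 was low up to E16.5, was higher from E18.5 on and passed through a peak at 4wk. The E14.5 samples had 2.19, 2.84 and 3.20 FPKM and the E16.5 samples 2.87 and 1.71, which overlapped. Whether the Klk1 reads at E14.5 came from the embryonic glands alone was not tested. The E18.5 samples had 57.3 and 102 FPKM, and the P5 samples 524 and 555. In the 4wk samples Klk1 reached 16222 and 14472 FPKM and ranked 8 and 9 among all genes, and in the 12wk samples it had 3866 and 3185. The mean was 34.8-fold higher at E18.5 than at E16.5, 6.77-fold higher at P5 than at E18.5, 28.4-fold higher at 4wk than at P5 and 4.35-fold lower at 12wk than at 4wk. From E16.5 on, the samples of successive time points did not overlap.

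**Figure D1:**
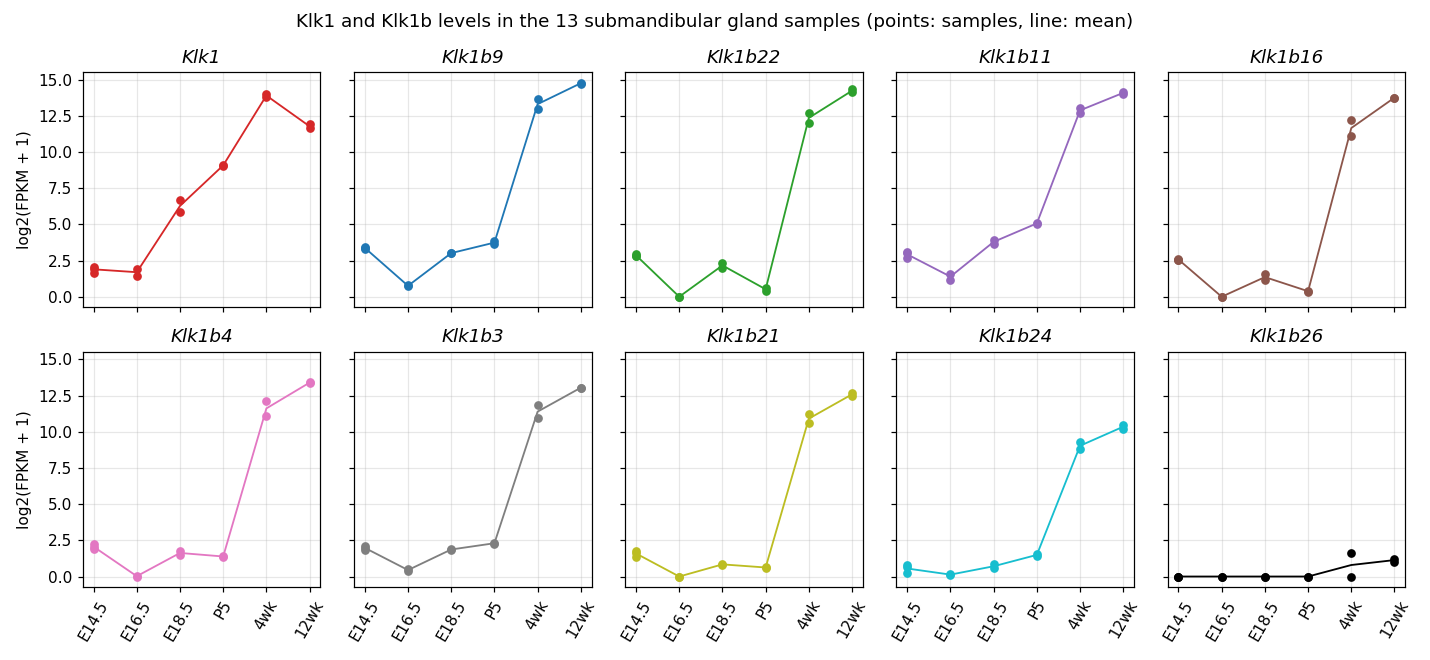
Level of each of the 10 genes, as log2(FPKM + 1), against time point, with a point for each of the 13 samples and a line through the mean. Klk1 climbs from E18.5 and is lower at 12wk than at 4wk, the paralogs other than Klk1b26 stay low up to P5 and are highest at 12wk, and Klk1b26 stays near 0.

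The paralogs named for binding of epidermal growth factor were Klk1b9 and Klk1b22, which were the highest members at 12wk. Klk1b9 had 9.42, 9.02 and 9.72 FPKM at E14.5, 0.729 and 0.647 in E16.5 glands, 7.16 and 7.01 at E18.5, and 11.5 and 13.3 at P5. It reached 8131 and 12682 FPKM at 4wk and 26864 and 28520 at 12wk, or 509983 and 705457 reads, and ranked 6 and 7 among all genes in the 12wk samples. Its level before 4wk stayed within a narrow band except at E16.5, where both samples lay below those of every other time point. For this and the other paralogs, whether the low E14.5 values came from the embryonic glands alone was not tested.

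Klk1b22 had 6.10, 6.56 and 6.13 FPKM at E14.5, no read in either E16.5 sample, 4.11 and 2.93 FPKM at E18.5, and 0.544 and 0.326 at P5. It was at 4155 and 6644 FPKM at 4wk and at 18039 and 20687 at 12wk. The mean at 4wk was 12406-fold that of P5, the widest step among the members, and rested on 32 reads in the P5 samples together.

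Klk1b26, the third paralog of this kind and also known as a prorenin-converting enzyme, was hardly counted. It had no read in the 9 samples up to P5 or in 4wk replicate 1, 14 reads in 4wk replicate 2 and 26 in each 12wk sample, which is 2.02, 1.36 and 1.05 FPKM. RefSeq gives Egfbp2 as another name of Klk1b26, and the tables hold a row of that name as well, with 1 read at P5, 1 at 4wk, and 18 and 12 at 12wk. The authors left out reads that fell in more than 1 gene. Of the 50-base windows of Klk1b26, 75.6% occurred at most once in mm9 and in no other listed transcript. Whether the pair of rows set its level was not tested.

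Klk1b3 and Klk1b4 are known as subunits of a growth factor complex. Klk1b3, the gamma subunit, which is an active protease, had 2.63, 3.24 and 2.99 FPKM at E14.5, 0.280 and 0.453 in E16.5 glands, 2.53 and 2.78 at E18.5, and 3.78 and 4.09 at P5. It stood at 1973 and 3677 FPKM at 4wk and at 8417 and 8531 at 12wk. Klk1b4, the alpha subunit, which lacks protease activity, had 3.77, 3.10 and 2.72 FPKM at E14.5, 1 read in the E16.5 samples together, 1.86 and 2.35 FPKM at E18.5, and 1.53 and 1.70 at P5. At 4wk it had 2186 and 4519 FPKM and at 12wk 10618 and 11004. In the 12wk samples Klk1b4 was above Klk1b3 without overlap, at E18.5 and P5 it was below Klk1b3 without overlap, and at E14.5 and 4wk the samples of both genes overlapped.

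Klk1b16, known as gamma-renin, had 4.92, 4.97 and 4.90 FPKM at E14.5, no read at E16.5, 1.92 and 1.25 FPKM at E18.5, and 0.330 and 0.275 at P5. It was at 2224 and 4686 FPKM at 4wk and at 13851 and 13828 at 12wk. Its P5 level was thus below that of E14.5, by 16.3-fold, from 38 reads at P5 and 486 at E14.5. The E14.5 level was 1 part in 2807 of that at 12wk, within the range of the other paralogs. As for those, it was not tested whether the E14.5 reads came from the embryonic glands alone.

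Klk1b11 was the paralog with the highest level at P5. Its FPKM was 7.35, 5.36 and 7.30 at E14.5, 2.02 and 1.28 in E16.5 glands, 11.8 and 14.03 at E18.5, and 31.9 and 33.2 at P5. From E16.5 to P5 its samples were higher at each time point without overlap. It was at 6577 and 8640 FPKM at 4wk and 16483 and 18452 at 12wk, where its samples overlapped those of Klk1b22.

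Klk1b21 and Klk1b24 were the lower of the well counted paralogs. Klk1b21 was between 1.57 and 2.47 FPKM at E14.5, without a read at E16.5, between 0.481 and 0.830 at E18.5 and P5, at 1543 and 2403 at 4wk, and at 5787 and 6584 at 12wk. Klk1b24 was under 1 FPKM in each of the 7 embryonic samples, with 2 to 15 reads, then at 1.71 and 1.93 FPKM at P5, 441 and 623 in 4wk glands and 1188 and 1439 at 12wk. It was the lowest member after Klk1b26 at 12wk, below Klk1.

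Relative to their own FPKM in 4wk replicate 1, the 8 well counted paralogs were between 1.31 times (Klk1b11) and 2.11 times (Klk1b16) as high in 4wk replicate 2, while Klk1 was 0.892 times as high. Crisp3 had a ratio of 1.33. These 2 samples were also the shallowest, with 5817293 and 7957918 reads on genes against 17345305 to 48314162 in the other 11. Summed over 5 skeletal muscle markers, replicate 1 had 18.4 FPKM and replicate 2 had 1.19, and over 5 fat markers 699.5 and 54.1, with Tnnt3 and Myh4 at 0 in replicate 2 and Myh3 at 0 in both. The part of these tissues in the difference was not tested. At 12wk the same paralogs differed between replicates by a factor of 0.998 to 1.21.

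The 10 genes together held between 0.00784% and 0.00879% of all FPKM at E14.5, 0.000905% and 0.00102% in E16.5 glands, 0.0175% and 0.0238% at E18.5, and 0.109% and 0.113% at P5. Their share was 5.25% and 6.70% at 4wk and 14.497% and 15.3% at 12wk. Without the 10 highest other genes of each sample in the total, it was 13.01% and 17.2% at 4wk and 26.9% and 27.4% at 12wk. By reads, 2118971 and 2930943 fell on them in the 12wk samples, which is 9.71% and 10.3% of the reads on genes. Since FPKM are relative to all reads of a sample, a family of this size lowers the values of the other genes. In whole glands, more cells of a type and more RNA per cell cannot be told apart.

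Within the family, the paralogs held the larger part of the summed FPKM at E14.5 and E16.5, and Klk1 held it at E18.5 and P5. At 4wk and 12wk the paralogs held it again. It was not tested whether part of the E14.5 paralog reads came from an adult library. Klk1 held 5.61% to 8.09% of the summed FPKM at E14.5, 40.9% and 47.6% in E16.5 glands, 64.9% and 76.4% at E18.5, and 90.9% and 91.0% at P5. Its share was 37.3% and 24.8% at 4wk, and 3.68% and 2.84% at 12wk. At 4wk Klk1 was above every paralog without overlap, and at 12wk it was below 7 of them without overlap and above Klk1b24 and Klk1b26.

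**Figure D2:**
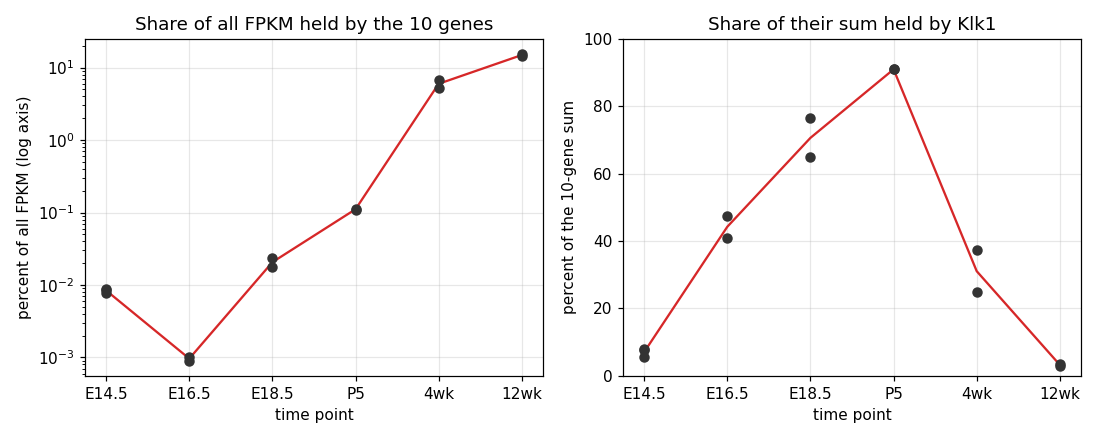
Share of all FPKM held by the 10 genes (left, percent on a log axis) and share of their sum held by Klk1 (right, percent), by time point, with a point per sample and a line through the mean. The family goes from a mean of 0.0084% at E14.5 to 14.9% at 12wk, and the Klk1 share is highest at P5 (90.9% and 91.0%).

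The make-up of the paralogs changed as well. At P5, Klk1b11 held 60.8% of the FPKM summed over the 9 paralogs, Klk1b9 23.1%, Klk1b22 0.82% and Klk1b16 0.566%. At 12wk the same shares were 16.6%, 26.3%, 18.4% and 13.2%. At 4wk they were 21.9%, 29.4%, 15.2% and 9.42%. Klk1b9 was thus between 22.2% and 29.9% of the paralog sum in every sample, while Klk1b22 and Klk1b16 were low where the Klk1b11 share was high.

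The E14.5 samples were the closest to the 12wk samples in this respect. Klk1b9 held 26.1%, Klk1b22 17.5% and Klk1b16 13.7% of the paralog sum at E14.5, and Klk1b11 between 15.5% and 20%. The paralogs ranked alike at E14.5 and 12wk except that Klk1b11 and Klk1b22, whose samples overlapped at both time points, changed places. Their sum was 34.5 to 36.8 FPKM at E14.5, 2.47 and 3.16 in E16.5 glands, 31.0 and 31.6 at E18.5, and 51.8 and 55.4 at P5. The mean at E14.5 was at least 167-fold higher than at E16.5 for Klk1b16 and at least 123-fold higher for Klk1b22, both against a floor of 3 reads over the E16.5 samples, and 13.6-fold higher for Klk1b9. Whether the E14.5 reads of the paralogs came from E14.5 glands, or in part from an adult library, was not tested, so these folds may not measure embryonic expression.

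**Figure D3:**
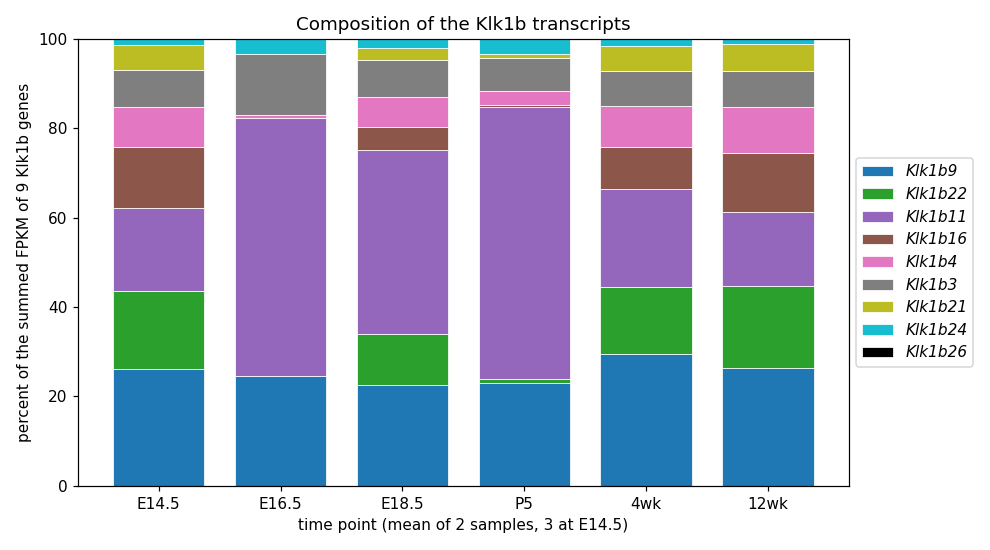
Composition of the summed FPKM of the 9 paralogs (percent, stacked bars, mean of 2 samples or of 3 at E14.5) by time point. Klk1b11 is the widest band at E16.5, E18.5 and P5 (57.8%, 41.2% and 60.8%), while the bars of E14.5 and 12wk resemble each other.

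In terms of fold, the mean at 12wk over that at E14.5 was between 2619 (Klk1b11) and 3381 (Klk1b4) in the 8 well counted paralogs, a range of 1.29 times. Over P5, the 12wk fold of the same genes ran from 536.5 (Klk1b11) to 45790 (Klk1b16), a range of 85.3 times, and over E18.5 from 1353 to 8731. The range over E14.5 is wider with the other paralogs of the cluster. Their 12wk folds over E14.5 were 2164 (Klk1b27), 3180 (Klk1b1), 3287 (Klk1b5) and 3466 (Klk1b8). It also holds for means only, since the ratio between single samples ran from 1701 to 7836 for Klk1b24, which had 31 reads at E14.5. For Klk1 the 12wk level was 1285-fold that of E14.5. A fold of this size was also found in other genes that are high in the adult gland, with 2863 for Egf and 3529 for Crisp3, a secreted cysteine-rich protein. Of the 15 genes outside the cluster with at least 1000 FPKM in both 12wk samples and a 12wk level at least 100 times that of E14.5, 8 had a fold between 2000 and 4000. The acinar markers differed among the E14.5 samples, with Aqp5 at 0.569, 9.13 and 5.98 FPKM, while the paralog sum was 36.8, 34.5 and 36.4. Whether reads of an adult library had a part in the E14.5 values was not tested.

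**Figure D4:**
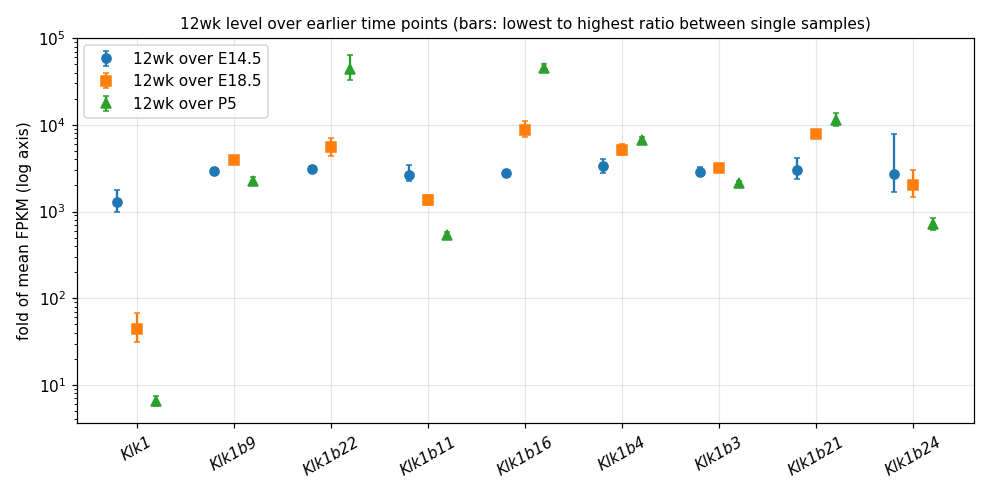
Mean FPKM at 12wk over that at E14.5, E18.5 and P5 (log axis) for the 9 genes with over 3 reads at each of these time points, with bars from the lowest to the highest ratio between single samples. The folds over E14.5 lie between 2619 and 3381 in the 8 paralogs, those over P5 between 536.5 and 45790, and those of Klk1 are lower, most of all over P5 (6.53).

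The course was also set out as differences of log2(FPKM + 1) from a limma fit over all 13 samples. A gene was called where the difference was at least 1 in size and the adjusted p below 0.1 over the 14650 genes that reached 1 FPKM in at least 1 sample. All 10 members passed that filter, Klk1b26 by its adult values alone. Because the members were chosen on these comparisons, their counts stand beside the share of all tested genes called, and nothing is read from them.

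From E14.5 to E18.5, 1 member was called higher (Klk1, 4.38 with a standard error of 0.23) and 1 lower (Klk1b16, -1.21 ± 0.24 (SE)), where 6.27% and 5.86% of all tested genes were called. The median of the 10 members was -0.24 and that of all tested genes -0.16. From E18.5 to P5, Klk1 (2.80 ± 0.25) and Klk1b11 (1.28 ± 0.19) were called higher and Klk1b22 lower (-1.65 ± 0.20), against 2.07% and 2.97% of all tested genes. Here the medians were 0.22 and -0.12. Of all called genes, 51.7% were higher in the first step and 41.1% in the second, and 66.1% and 57% after rescaling by median-of-ratios factors.

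From P5 to 4wk, 9 members were called higher and none lower, and 2.19% of all tested genes were higher and 22.1% lower. The member differences ran from 4.83 ± 0.25 (SE) for Klk1 to 11.84 ± 0.20 for Klk1b22, and Klk1b26 had 0.80 ± 0.36. The median was 9.33 for the members and -0.53 for all tested genes. Rescaling by median-of-ratios factors brought the latter to -0.06 and called 933 genes higher and 1278 lower in place of 321 and 3235, with all 10 members higher. Under this rescaling Klk1 had 5.50 and Klk1b26 had 1.05, just past the size required.

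From 4wk to 12wk, 8 paralogs were called higher and Klk1 lower, and 2.68% of all tested genes were higher and 2.48% lower. The paralogs ran from 1.21 ± 0.19 (SE, Klk1b11) to 2.10 ± 0.26 (Klk1b16), and Klk1 had -2.13 ± 0.25. The median was 1.55 for the members and 0 for all tested genes. With only the 4 samples of these time points in the limma fit, 0 of the 10 members and 244 genes were called, although 8 members and 2927 genes had an unadjusted p under 0.05. Without 4wk replicate 2, 1472 genes were called in place of 755, and without 4wk replicate 1, 664. The samples of both time points did not overlap for Klk1 or for any paralog but Klk1b26. The share of all tested genes without such overlap was not counted, so nothing is read from this.

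In the mean of 4wk and 12wk against the mean of the embryonic time points, 9 members were called higher, by 9.23 ± 0.13 (SE, Klk1b24) to 11.65 ± 0.11 (Klk1b9), where 5.40% of all tested genes were higher and 37.5% lower. The medians were 10.87 for the members and -0.74 for all tested genes. Under median-of-ratios rescaling the latter was -0.07, and 1960 genes were higher and 2098 lower in place of 791 and 5497.

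The 12wk levels are also given along the chromosome. Klk1b8 and Klk1b1, which lie before Klk1b9, had 8010 ± 748 and 3518 ± 37.3 FPKM (SD, n = 2). The neighbours Klk1b9 and Klk1b11 stood at 27692 ± 1171 and 17467 ± 1392 FPKM. The next genes, Klk1b26 and Klk1b27, had 1.21 ± 0.224 and 3746 ± 1082 FPKM. Whether the separate Egfbp2 row set the level of Klk1b26 was not tested. Klk1b21 followed with 6185 ± 563 FPKM. After it, Klk1b22 and Klk1b16 stood at 19363 ± 1872 and 13840 ± 16.502 FPKM, while Klk1b24, next to Klk1b16, had 1314 ± 178. Further on, Klk1b3, Klk1b4 and Klk1b5 stood in a row at 8474 ± 80.7, 10811 ± 273 and 7009 ± 233 FPKM, before Klk1 at 3525 ± 481.

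**Figure D5:**
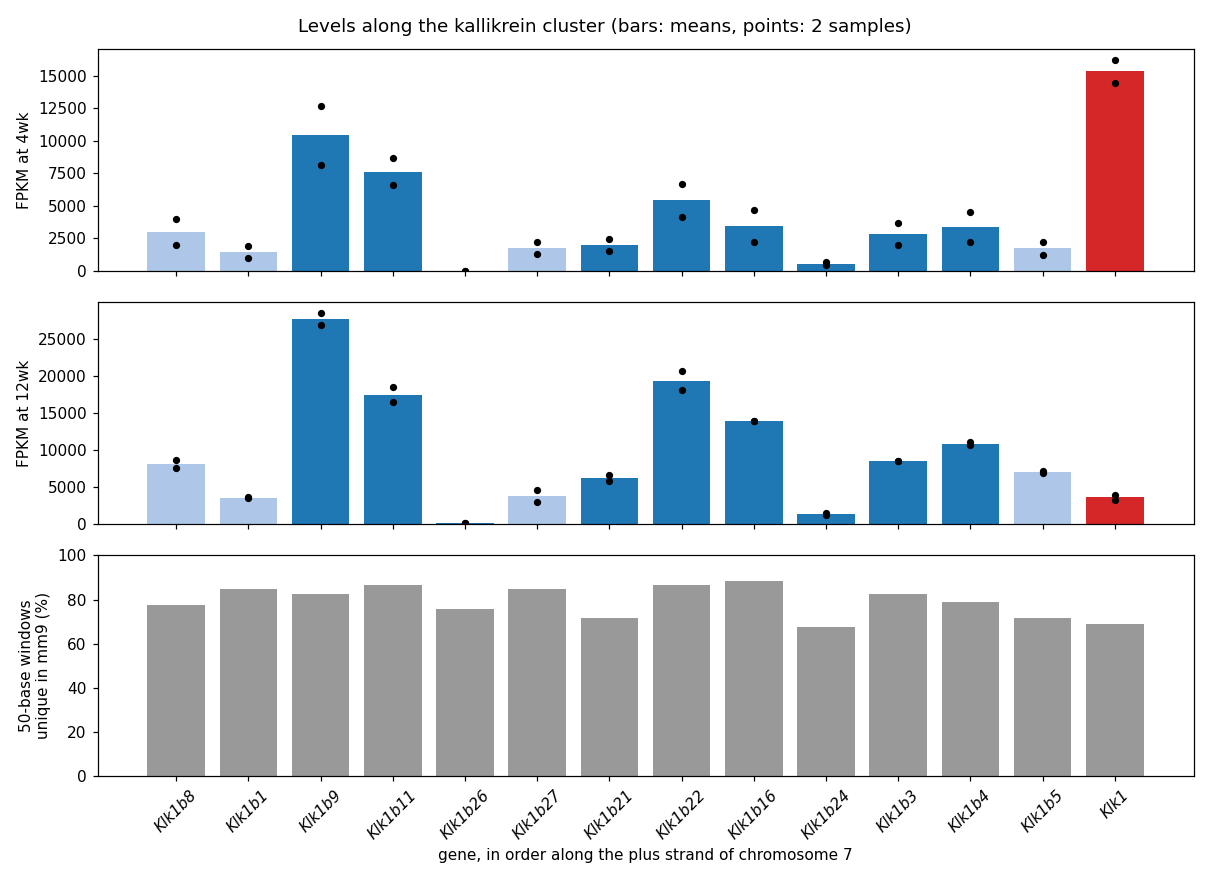
FPKM at 4wk (top) and 12wk (middle) of the 14 protein-coding genes of the cluster in their order on chromosome 7, with bars for the mean and points for the 2 samples. The bottom panel gives the percent of 50-base windows found at most once in mm9 and in no other listed transcript. Klk1 in red has the highest mean at 4wk and one of the lower at 12wk, the 9 paralogs described are in dark blue with Klk1b26 near 0, and the 4 other paralogs are in light blue.

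The other paralogs of the cluster, Klk1b1, Klk1b5, Klk1b8 and Klk1b27, followed the same course. All 4 were called higher from P5 to 4wk, by 7.98 to 10.33 on the log2 scale, and from 4wk to 12wk, by 1.14 to 2.09. Of all tested genes, 2.19% and 2.68% were called higher in these steps. The 4 genes were listed with earlier results of these samples known, so their calls are a description only. None of these 4 kept the second call with only the 4wk and 12wk samples in the fit (adjusted p from limma 0.134 to 0.257). They were as low at E16.5 as the members, with a sum of 0.530 and 0.547 FPKM against 7.14 to 7.47 at E14.5. The more distant kallikrein-related peptidases were mostly low. Of Klk4 to Klk15, 11 of 12 stayed under 1 FPKM in every sample, and Klk8, an epidermal and brain protease, fell by 1.21 from P5 to 4wk (limma, adjusted p = 0.00784).

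Of the growth factors handled by kallikreins and their receptors, Egf had 21.3 and 24.8 FPKM at P5, 2883 and 4322 in 4wk glands and 10366 and 10965 at 12wk, and rose by 7.20 ± 0.25 (SE; limma, adjusted p = 4.36e-09) and then by 1.59 ± 0.25 (adjusted p = 0.0021). In the fit of 4wk and 12wk samples alone the second step was no longer past the threshold (limma, adjusted p = 0.156). Ngfr, a neurotrophin receptor, rose by 1.72 ± 0.19 from P5 to 4wk (adjusted p = 4.02e-05). Tgfa and Egfr fell by 1.01 and 1.03, and neither was called after median-of-ratios rescaling (-0.58 and -0.47).

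The genes of the kinin and angiotensin systems were mostly low. Of 13 listed, 6 reached 1 FPKM, and Kng1, Kng2 and Klkb1, which encode the kininogens and plasma kallikrein, stayed under 0.5 FPKM in every sample. Agt, which encodes angiotensinogen, had 4.70 and 6.67 FPKM at E18.5, 89.6 and 100.3 at P5, 122 and 119 in 4wk glands and 33.3 and 12.3 at 12wk. It rose by 3.86 ± 0.36 from E18.5 to P5 (limma, adjusted p = 9.55e-05) and fell by 2.51 ± 0.36 from 4wk to 12wk (adjusted p = 0.00127, and 0.154 with those samples alone). The angiotensin receptor genes Agtr1a and Agtr2 fell from P5 to 4wk by 1.67 and 5.09 (adjusted p = 5.18e-05 and 3.25e-08). Ren1 was listed at 0 in all but 1 sample. The row Ren2, named here after its values were seen, had 0.902 and 0.906 FPKM at 4wk and 125 and 85.3 at 12wk. Reads that fell in several places or genes were left out by the authors. Whether this set the levels of the Ren1 and Ren2 rows was not tested, so they do not show which renin gene is expressed.

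Of 11 inhibitors of such proteases, 7 were tested and 2 rose from 4wk to 12wk, where 2.68% of all tested genes were called higher. Serpinb6a rose by 1.74 ± 0.25 from P5 to 4wk (limma, adjusted p = 0.000191) and by 1.26 ± 0.25 from 4wk to 12wk (adjusted p = 0.0081), with 51.2 and 59.9 FPKM at P5 and 478 and 421 at 12wk. Its second step was not past the threshold with those samples alone (adjusted p = 0.134). Serpina3n rose by 2.05 ± 0.23 from 4wk to 12wk (limma, adjusted p = 0.000253). It started from 0.412 and 0.904 FPKM in the 4wk samples, which were the shallowest. Spink5, an inhibitor best known from epidermis, fell by 1.75 ± 0.17 from P5 to 4wk (limma, adjusted p = 1.85e-05).

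Among the hormone receptors, Thrb, a thyroid hormone receptor, had an adult mean above the embryonic one by 1.60 ± 0.12 (limma, adjusted p = 1.74e-07). Thra and the glucocorticoid receptor gene Nr3c1 fell from P5 to 4wk by 1.37 and 1.22, and under median-of-ratios rescaling by 0.74 and 0.61, short of the size required.

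By Pearson correlation of log2(FPKM + 1) over the 13 samples, the genes outside the kallikreins most like Klk1 among 8709 compared were Asns (r = 0.991), Wfdc12 (0.989), Srpr (0.984) and Fbxl4 (0.984). Wfdc12 had a mean of 601 FPKM at P5, 27357 at 4wk and 11761 at 12wk. Among those most like the mean of the paralogs were Crisp3 (r = 0.995), Abo (0.993), Muc13 (0.992) and Stx7 (0.990). Klk1 and the mean of the paralogs had r = 0.828. The points share the age of the samples, and r describes a common course over time.

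The tissue was checked against marker genes. Acinar markers such as Aqp5 and Bhlha15 were present from E16.5 on at 35.8 FPKM or more, and the duct markers Krt7, Ascl3, Scnn1a and Cftr at 7.50 FPKM or more at 4wk and 12wk, where Krt19, the last of the 5, was between 1.502 and 9.41. Summed mesenchyme markers went from 2387 to 2589 FPKM at E14.5 to 250.8 and 328.6 at 12wk, and summed skeletal muscle markers from 368 and 795.5 at E16.5 to 1.04 and 1.71 at 12wk. In 12wk replicate 2 the acinar marker Bpifa2 and, picked after their values were seen, Amy1 and Chia were at 33795, 6360 and 6207 FPKM against 3770, 625 and 668 in replicate 1, while the paralog sum was 109046 and 101248. Xist, which is transcribed from the inactive X chromosome, was between 13.4 and 51.5 FPKM in each embryonic sample and at most 0.0480 from P5 on. The Y-linked Ddx3y was between 4.10 and 16.7 FPKM in the embryonic samples, and the P5 samples had 18.2 and 18.1. The adult males ranged from 9.64 to 12.8, and Kdm5d, Eif2s3y and Uty were likewise above 1 FPKM in every sample. The part of these differences in the kallikrein levels was not tested.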

How the data were processed

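Submandibular gland RNA of 13 samples at 6 time points was analysed. Single-end reads of 50 bases were aligned by the authors to mm9 (TopHat2 2.0.13, Bowtie2 2.2.6) and assigned by featureCounts to UCSC genes, leaving out those that fell in several places or genes. The authors deposited FPKM, with DESeq2 1.10.1 named for normalization in the submitters' processing notes. Strand of the counting is not given in the sources used here. Samples were grouped by the time point and replicate number of the labels.

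For each gene, a length was searched that made FPKM times this length and a depth per sample a whole number in every sample (tolerance 0.0001). Such a length was found for all 10 members, and the whole numbers were taken as reads. The length found was not always the exon length of GENCODE. The depths, 5817293 to 48314162 reads on genes with a median of 26731429, set the value of 1 read on 1 kilobase to between 0.0207 and 0.1719 FPKM. Median-of-ratios factors of 0.617 to 1.38 showed the FPKM to be scaled to totals. Folds against a group without reads used a floor of 3 reads, which covers counting error only.

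Genes reaching 1 FPKM in any sample were fitted as log2(FPKM + 1) with limma 3.58.1 (R 4.3.3, eBayes with trend, 6 time points in 1 fit, Benjamini-Hochberg adjustment, unlike the count model of the authors). The values are no counts, so no count model was run. On simulated data with 14650 genes, 100% of 100 genes changed by 2 and of 100 changed by 4 on the log2 scale were recovered from 4wk to 12wk. The simulated spread was capped and only genes above a low level were changed. This recovery therefore checks the code and does not hold for genes that differ widely between 4wk replicates. The named genes were all members, from each list up to 4 called genes with the largest difference, and the 5 genes most like Klk1 and the paralog mean. Some genes that this rule names are not reported here. The members and all lists were chosen with earlier results of these data known. Sequence windows, alignments (Biopython 1.88) and motifs used mm9 with GENCODE vM1 and RefSeq promoters, and TTTAAA was searched after the sequences were seen. Other work used Python 3.11.15, numpy 2.4.6, pandas 2.3.3 and matplotlib 3.10.9. Alternatives were another pseudocount, filters, scaling, trend and groups of the fit, the replicate block and each sample left out.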

Additional observations from a re-analysis of the deposited data

How the results depend on the processing

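With a pseudocount of 0.1 in place of 1, 2840 genes were called from E14.5 to E18.5, 1163 from E18.5 to P5, 5767 from P5 to 4wk and 1658 from 4wk to 12wk, in place of 1777, 738, 3556 and 755, and 5 members in place of 3 were called from E18.5 to P5. Median-of-ratios rescaling called 2211 genes from P5 to 4wk and 4058 in adult against embryo, in place of 3556 and 6288, and raised the share of higher calls from 51.7% to 66.1% from E14.5 to E18.5 and from 41.1% to 57% from E18.5 to P5. With only the compared time points in the fit, 244 genes and 0 members were called from 4wk to 12wk.

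Leaving out each sample in turn gave 1577 to 2080, 567 to 761, 3234 to 3978, 617 to 1472 and 6167 to 6416 called genes in the 5 comparisons in time order, and between 9 and 10 members from P5 to 4wk, from 4wk to 12wk and in adult against embryo. Without both 4wk samples, an alternative chosen after seeing the data, 6364 genes and 10 members were called in adult against embryo. No called member changed direction under any alternative run.

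As a share of all FPKM without those of the 10 highest other genes, the members held 0.009% at E14.5, 0.159% at P5, 15.1% at 4wk and 27.2% at 12wk. Over all Klk1 and Klk1b rows, Klk1 held 89.4% at P5. Deviations of same-numbered samples from the means of their time points had a mean correlation of -0.016 over 30 pairs of samples (-0.352 to 0.273). The deviations mirror each other in time points of 2 samples, so many pairs repeat a value. This does not show whether samples were paired. With the replicate block 1867, 731, 3559, 741 and 6295 genes were called. The depth of the 4wk samples limits low values most.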
